A study of Mus musculus with 110 samples.

Results

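The interval described here lies next to Ighd1-1, the D segment that took the most junctions in these libraries, on its VH side. It spans chr12:114734645-114739544 of the hybrid reference of the study (the AJ851868 sequence joined to mouse genome build mm9). These 4900 bp start 101 bp and end 5000 bp from the JH-side end of Ighd1-1, from which all distances are counted. Its members are all junctions whose prey coordinate fell between these positions, in either orientation. There were 50902 of them among 3602400 junction rows in 98 libraries, 1.41% of all rows. By position, the last 50 bp outside the JH end of the interval held 2183 rows and the first 50 bp inside it 249, and at the VH end the last 50 bp inside held 2 rows and the next 50 bp outside 0. Matched to mm9, the interval corresponds to chr12:114720482-114725365, which overlaps none of the genes of the GENCODE vM1 annotation. It lies between Ighd1-1 (mm9 114720381 to 114720403, minus strand) and the protein-coding gene Adam6b (mm9 114727756 to 114730229, plus strand), so it is intergenic.

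The assay was LAM-HTGTS, which amplifies genomic DNA outward from one known end, here the JH4 segment (the bait), and reads the sequence joined to it (the prey). The v-Abl lines were transformed mouse pro-B lines that carried Emu-Bcl2 and lacked endogenous RAG2. RAG2 was brought in by nucleofection, and the cells were held with 3 µM STI-571, an inhibitor of the Abl kinase, for 4 days. Each line was left without auxin (NT) or given 500 µM indole-3-acetic acid (IAA), first for 6 h alone and then together with STI-571. The parental line (4 NT and 4 IAA replicates), a line with the auxin receptor Ostir1 knocked in (4 and 4) and a line with CTCF tagged by mAID-GFP (4 and 4) served as controls for IAA. The other lines were the CTCF degron line (6 and 6), the Rad21 degron line (3 and 3) and the Rad21 degron line with IGCR1 deleted (4 and 4). Wild-type 129SV bone marrow pro-B cells gave 6 further replicates, sorted as B220+ CD43+ IgM- where the labels name a sort. The labels do not say whether replicates came from separate cultures or animals, so the p-values measure the spread between these samples, which may be technical. Each line may be 1 clone, and differences between lines cannot be told apart from differences between clones.

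V(D)J recombination is started by the RAG1/RAG2 endonuclease, which cuts next to recombination signal sequences made of a heptamer, a spacer and a nonamer. The heptamer consensus is CACAGTG, and its first 3 bases, CAC, are the part that cutting depends on most. At Igh a D segment is first joined to a JH segment, and a VH segment is joined to that DJH. The cohesin ring, of which Rad21 is a subunit, moves chromatin past RAG bound at the JH end of the locus, and CTCF bound at the IGCR1 element between the D and VH segments impedes that movement. RAG also cuts at CAC sequences with partial signal-like context on its way, and such off-segment joins record where it has been. Igh lies on the minus strand of chromosome 12. A prey in plus orientation therefore runs away from JH4 and corresponds to deletion of the DNA between bait and prey, and a prey in minus orientation runs back toward JH4 and corresponds to inversion.

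Most of the junctions piled up at a few positions. The 5 plus-orientation sites with the highest level, each a window of 11 positions, are shown with Ighd1-1 because they carry most of the signal and their sequences differ from a D segment in a visible way. Each line gives 38 bases of mm9 on the Igh sense strand (minus strand of chromosome 12), 5′ to 3′. The first 10 bases are on the side that joined JH4, the 7 capitals are the heptamer place that begins with CAC, and the last 9 bases are the nonamer place behind a spacer of 12 bases.
Ighd1-1: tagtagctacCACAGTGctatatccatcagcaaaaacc
site 1030 bp away: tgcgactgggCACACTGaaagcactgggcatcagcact
site 1986 bp away: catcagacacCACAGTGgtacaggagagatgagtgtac
site 3176 bp away: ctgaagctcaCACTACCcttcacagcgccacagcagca
site 3526 bp away: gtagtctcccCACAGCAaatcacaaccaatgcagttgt
site 3660 bp away: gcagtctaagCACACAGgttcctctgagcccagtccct
Ighd1-1 matched 7 of 7 bases of the heptamer consensus and 8 of 9 bases of the nonamer consensus. The site at 1030 bp matched 6 of 7 heptamer bases and 4 of 9 nonamer bases. The site at 1986 bp had a full heptamer, 7 of 7, but only 2 of 9 nonamer bases. The site at 3176 bp matched 3 of 7 and 5 of 9, the site at 3526 bp 5 of 7 and 1 of 9, and the site at 3660 bp 5 of 7 and 3 of 9. All 5 sites had a heptamer place that began with CAC, since each stretch was printed from a CAC found next to the site. The most used position lay right next to that CAC at 1030, 1986, 3176 and 3526 bp. At 3660 bp it lay 4 bases farther away. Behind a spacer of 12 bases, none of the 5 sites had a nonamer place close to that of Ighd1-1. Other spacer lengths were not examined. The coordinates of these stretches in mm9 were 114721383 to 114721420, 114722339 to 114722376, 114723516 to 114723553, 114723866 to 114723903 and 114723996 to 114724033, in the order printed, and 114720353 to 114720390 for Ighd1-1. The printed bases and match counts are those of mm9. At the site at 3176 bp 37 of 38 bases read at least 10 times equalled mm9, at the site at 3526 bp 30 of 30, and at Ighd1-1 19 of 20, so 1 base in each of 2 stretches differed in the reads.

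The site at 1030 bp held 19806 rows, 39.2% of the plus-orientation rows of the interval. The site at 1986 bp held 8454 rows (16.7%), the site at 3660 bp 6598 (13.1%), the site at 3176 bp 3483 (6.90%) and the site at 3526 bp 1964 (3.89%). Rows of the first site came from 88 of the 98 libraries, and those of the site at 3526 bp, the least used of the 5, from 81. Beyond 3700 bp from Ighd1-1 only 27 rows were left in all libraries together, with at most 9 rows in any group.

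Over all plus-orientation rows, 86.3% started within 0 to 5 bases after a GTG of the plus strand, which is CAC read on the Igh sense strand. Such positions made up 13.4% of the interval in mm9. In the 48 replicates with at least 10 such rows the share ran from 74.9% to 94.9%, with a median of 85.9%. By comparison, 2.17% of the plus-orientation rows began just before a CAC of the plus strand, the reverse arrangement, which covers 7.04% of positions. Each of those replicates lay far above the 13.4% of positions. The rows fell on 881 distinct positions of 4900. Of those distinct positions 29.6% lay just after a GTG, a smaller part than of the rows.

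The most used site was not the one with the best heptamer. Searched on both strands of the mm9 interval, CACAGTG and its close form CACTGTG, which are reverse complements of one another, occurred at 2 places. The copy read as CACAGTG on the Igh sense strand, at mm9 114722360 to 114722366, is the site at 1986 bp, with 8068 plus-orientation rows starting next to it. The other copy reads CACTGTG on that strand, at mm9 114721820 to 114721826, and had 594 rows. The most used site, at 1030 bp, has neither form.

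**Figure D1:**
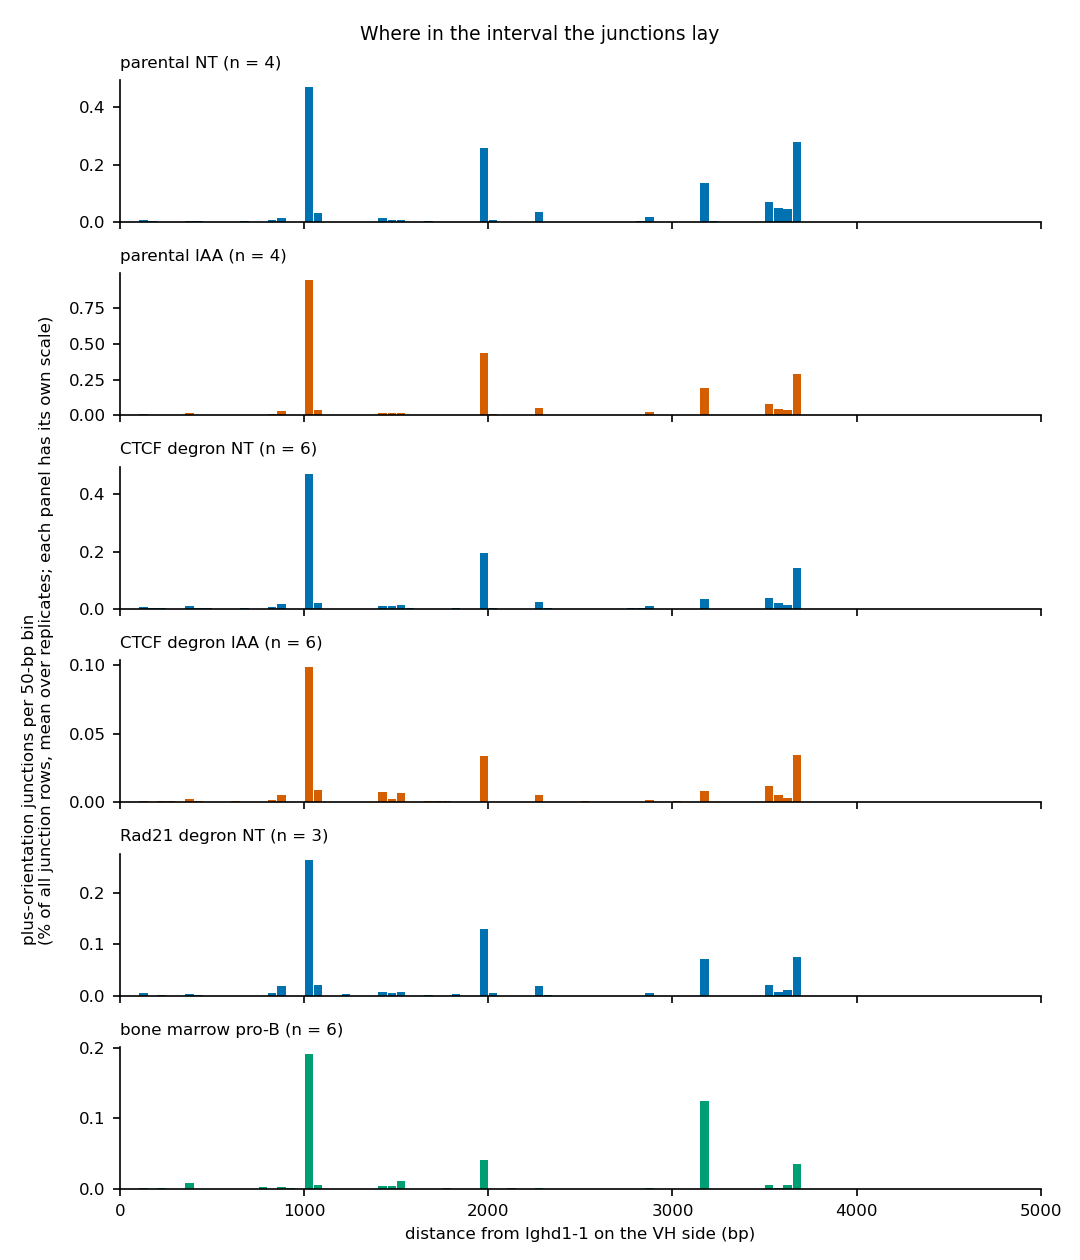
Plus-orientation junctions per 50-bp bin (y axis, percent of all junction rows, mean over the replicates of a group) against the distance from Ighd1-1 toward the VH side (x axis, bp), in 6 groups, each panel on its own scale. The tallest bar lies at 1030 bp in each panel, the next at 1986, 3176 or 3660 bp, and bars beyond 3700 bp are too low to see.

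Minus-orientation rows were rare, 403 of 50902 (0.792%), and they also gathered at a few positions. Minus-orientation sites lay 3018 and 1978 bp from Ighd1-1. The latter is printed on the plus strand of mm9, 5′ to 3′, with the joined side first and the heptamer place in capitals, to show that CAC again follows the joined base.
minus site 1978 bp away: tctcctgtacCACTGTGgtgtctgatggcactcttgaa
The minus site at 1978 bp (92 rows) lies on the same 7 bases as the heptamer of the plus site at 1986 bp, read on the other strand. Of all minus-orientation rows, 35.7% ended within 5 bases before a CAC, against 7.04% of positions. Counted separately, 22.1% ended exactly on the last base of a GTG, against 2.42% of positions, and a row can be in both counts. As background, a cut next to a heptamer leaves a coding end and a signal end, and that last base is where the signal end would begin.

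The minus site at 3018 bp was of another kind. It held 19 rows from 10 libraries. Sites were ranked by share of all rows with libraries weighted equally, so a row of a small library counted for more. The IGCR1-deleted line with IAA had a mean share of 0.0916 ± 0.0961% at this site (SD, n = 4), on 9 of 8434 rows. Parental NT had 0 of 488632 rows there. These shares were not tested. Of the 19 rows, 9 came from the IGCR1-deleted line with IAA, 4 from the same line without IAA, 4 from the CTCF degron line with IAA and 2 from that line without IAA. None came from the parental, Ostir1, CTCF-tag or Rad21 degron lines or from bone marrow. No CAC lay next to it in the searched distance.

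The junctions of the interval had a second feature that junctions at Ighd1-1 lacked. Between the last JH4 base and the first prey base they carried extra bases, and these were often a D segment. An inserted stretch was scored as D when it held 8 bases in a row of a D segment annotated in mm9, in the strand in which a D left in germline order would be read. This was so in 27572 of 50499 plus-orientation rows of the interval (54.6%), and in 7090 of 1851523 rows within 100 bp of Ighd1-1 (0.383%). Stretches of D in the inverted strand were found in 0.933% of the interval rows. The inserted stretch had 8 bases or more in 79.2% of the interval rows and 2.66% of the rows at Ighd1-1. The requirement of 8 bases misses D segments trimmed shorter, and with 10 bases the interval value fell to 37.5%.

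The most frequent such junction at the site at 1030 bp, by the number of replicates that shared it, is shown as read from JH4 toward the prey. The first 12 bases are JH4, the capitals match the Ighd2 family and the last 12 bases are prey.
JH4 to D to interval: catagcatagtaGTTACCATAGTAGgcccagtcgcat
This exact sequence was present in 18 rows from 9 replicates. Of all D-holding rows of the interval, 23954 (86.9%) matched the Ighd2 family best, 1608 (5.83%) Ighd1-1 itself, 1603 (5.81%) the JH-proximal Ighd4 family and 266 (0.965%) the Ighd3 family. At Ighd1-1, where few rows held a D at all, the Ighd4 family led with 3919 of 7090 rows (55.3%). Ighd4-1 is only 11 bases long and is the most easily missed of these.

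The difference was far larger than the spread between replicates. In the 48 replicates with at least 10 plus-orientation interval rows, the D-holding share of interval rows was 34.5% to 62.2% (median 54.7%). In the same replicates the share at Ighd1-1 was 0.133% to 0.548% (median 0.371%), so the values did not overlap and the interval was higher in 48 of 48. The mean inserted length was 8.62 to 15.9 bases in the interval and 0.451 to 3.25 bases at Ighd1-1. By group the mean D-holding share of interval rows ran from 50.9% in Ostir1 IAA to 55.9% in parental NT. It was 55.9 ± 2.09% (SD, n = 4) in parental NT, 55.5 ± 1.79% (n = 4) in parental IAA and 55.6 ± 2.52% (n = 6) in CTCF degron NT. It was 51.4 ± 9.21% (n = 6) in CTCF degron IAA, 55.1 ± 3.65% (n = 3) in Rad21 degron NT and 52.3 ± 2.61% (n = 6) in bone marrow. In the Ostir1 line, replicates 1 to 4 had 57.2%, 56.1%, 49.2% and 50.9% without IAA. With IAA they had 56.2%, 57.9%, 42.2% and 47.3%. Their mean inserted length in the interval was 13.7, 14.2, 9.34 and 9.59 bases without IAA. With IAA it was 14.0, 14.0, 8.62 and 8.93 bases. These values were described and not tested between groups. All 5 sites held D at a like rate, from 52.1% at 3660 bp to 58.7% at 3526 bp.

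An equally long window on the JH side of Ighd1-1, which also holds the D segment Ighd6-1, was used for comparison. There 26.1% of plus-orientation rows held a D stretch. In the 45 replicates with enough rows in both windows the interval had the higher share in 45, although single replicates reached 52.2% on the JH side.

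**Figure D2:**
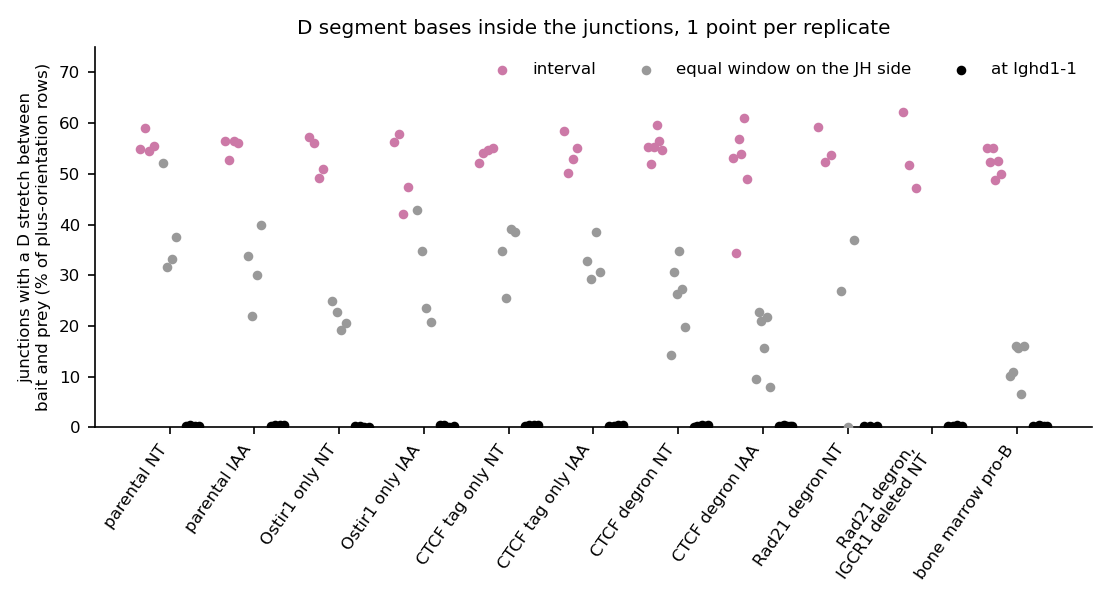
Percent of plus-orientation junctions with 8 or more consecutive bases of a D segment between bait and prey (y axis) by group (x axis), 1 point per replicate with at least 10 rows. Interval points lie between 34.5% and 62.2%, points of the JH-side window between 0% and 52.2%, and points at Ighd1-1 at no more than 0.548%.

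The interval was also used more than the JH-side window in most groups, as a share of all rows. In parental NT it took 1.50% against 0.190%, 7.92 times as much, in 4 of 4 replicates. In the CTCF degron line it took 1.09% against 0.174% without IAA and 0.252% against 0.113% with IAA, in 6 of 6 replicates each (two-sided exact sign-flip tests, p = 0.03125 each, the smallest these allow). Groups of 3 or 4 cannot go below 0.25 or 0.125. None of these sign-flip tests, 1 for each of the 13 groups, passed Benjamini-Hochberg adjustment, with 0.181 as the lowest value. Bone marrow was different in value: 0.465% in the interval against 0.523% on the JH side, with 3 of 6 replicates higher on each side (exact sign-flip p = 0.3125).

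The level of the interval was compared between groups as a share of all rows and as rows per 100 rows at Ighd1-1, which sets off-segment joins against use of the neighbouring D segment. Replicate values are means of the a and b libraries of one replicate. The 31 comparisons between groups were two-sided exact permutation tests over replicates, called at an unadjusted p under 0.05. None passed Benjamini-Hochberg adjustment over the 31, where the lowest value was 0.0671, so each call below rests on its own test. The read names carry 11 run numbers, and shares within a run are given where a run held both groups. Library depth ran from 1263 to 231023 rows per replicate, and intervals and floors given here cover counting error only, since rows are not independent molecules.

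**Figure D3:**
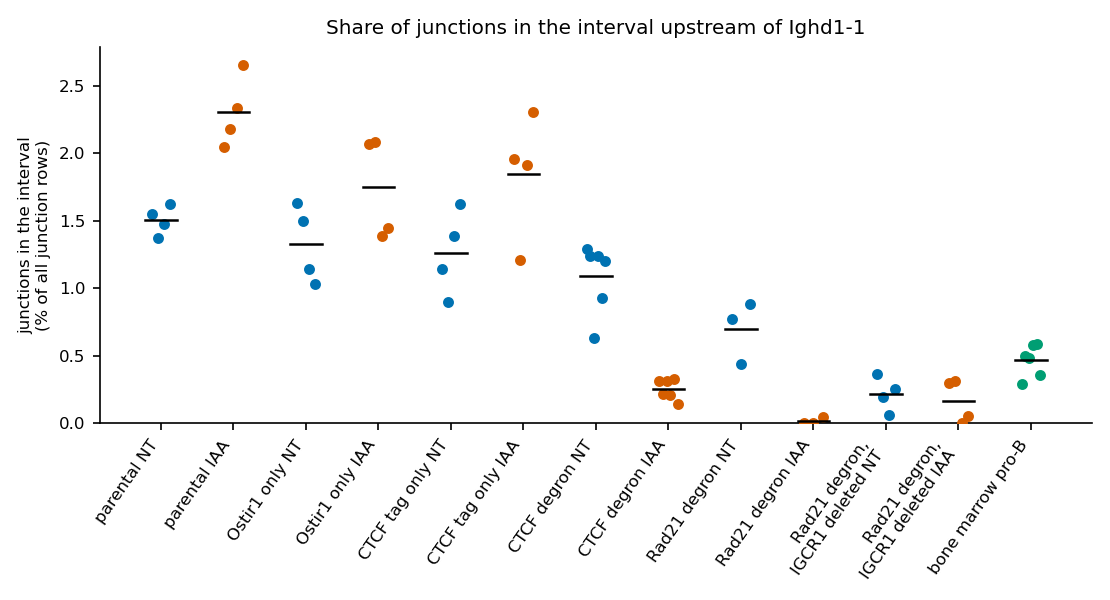
Share of all junction rows that lay in the interval (y axis, percent) by group (x axis), 1 point per replicate and a bar at the mean; blue is NT, orange IAA, green bone marrow. The IAA points lie above the NT points in the parental line and below them in the CTCF degron line, and the Rad21 degron IAA points lie at or near 0.

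In the CTCF degron line, where IAA is meant to deplete CTCF, the interval fell with IAA. Shares in the 6 CTCF degron NT replicates ran from 0.630% over a median of 1.22% to 1.29%, and in the 6 IAA replicates from 0.140% over 0.262% to 0.325%. All IAA values lay below all NT values. The means were 1.09 ± 0.258% and 0.252 ± 0.0756% (SD, n = 6 each), a 4.32-fold fall (exact permutation p = 0.00216, the smallest that 6 against 6 allows). All 12 replicates came from 1 run. Per 100 rows at Ighd1-1 the values were 1.77 ± 0.495 and 0.962 ± 0.389 (n = 6 each), 1.84 times lower with IAA, and the groups overlapped (exact permutation p = 0.0195). Paired by replicate number, 4 of 6 pairs fell per 100 and the exact sign-flip p was 0.125, but the numbers were not taken to pair the samples in this line. Of the libraries titled as IAA here, 3 have a treatment label that does not name IAA. Without them the differences were -0.862 percentage points (exact permutation p = 0.00433) and -0.925 rows per 100 (p = 0.0195, exact permutation).

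The mean level of each of the 5 sites was lower with IAA. The site at 1030 bp took 0.453 ± 0.145% of all rows in NT and 0.0933 ± 0.0334% in IAA, and the site at 1986 bp 0.187 ± 0.0464% and 0.0328 ± 0.0149%. The site at 3176 bp took 0.0329 ± 0.00691% and 0.00654 ± 0.00641%, with 2 IAA replicates at 0 rows, and the site at 3660 bp 0.136 ± 0.115% and 0.0325 ± 0.0241% (SD, n = 6 each). The site at 3526 bp had 97 rows in all NT replicates and 18 in all IAA replicates. Within the interval, the site at 1030 bp had 41.8 ± 8.23% of interval rows in NT and 37.6 ± 7.72% in IAA. These site levels are descriptions, since the sites were chosen by their level.

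In the parental line, which carries no degron, the interval rose with IAA. There the 4 NT shares were 1.55%, 1.37%, 1.47% and 1.62%, and the 4 IAA shares were 2.04%, 2.18%, 2.33% and 2.65%. All IAA values lay above all NT values (2.30 ± 0.261% against 1.50 ± 0.107%, n = 4 each, exact permutation p = 0.0286, the smallest possible). Set against 100 rows at Ighd1-1, the means were 4.39 ± 0.616 and 2.48 ± 0.179 (exact permutation p = 0.0286). Replicate numbers were taken to pair the samples in this line because same-numbered samples deviated together, not from a label. Replicates 1 and 2 lay in different runs without and with IAA. By pairs, 4 of 4 were higher on both scales, where the exact sign-flip test cannot go below 0.125. Rows of a library were called identical when prey coordinates, orientation and bait end were the same. Inserted bases were not compared, so different joins with the same ends could be merged. Both calls ended when identical rows of a library were counted once, at 0.865 percentage points (exact permutation p = 0.314) and 2.77 rows per 100 (exact permutation p = 0.429). Within the only run that held both groups the parental means were 2.49% and 1.55%, with 2 replicates each.

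In the Ostir1 line the shares were 1.63%, 1.49%, 1.14% and 1.03% without IAA and 2.07%, 2.08%, 1.39% and 1.45% with it, and the groups overlapped (1.32 ± 0.283% and 1.75 ± 0.381%, n = 4 each, exact permutation p = 0.171). Relative to 100 rows at Ighd1-1 they did not overlap, at 3.46 ± 0.512 and 2.38 ± 0.341 (n = 4 each, exact permutation p = 0.0286). Without any 1 of the 4 NT replicates p was 0.0571 (exact permutation), although the groups still did not overlap. With each replicate of either group left out in turn, the difference stayed at 0.916 to 1.25. It also ended with identical rows counted once, at 1.88 rows per 100 (exact permutation p = 0.0857), where the share passed (0.574 percentage points, exact permutation p = 0.0286). In the CTCF-tag line the share was 1.85 ± 0.459% with IAA and 1.26 ± 0.313% without (exact permutation p = 0.0857), and the value per 100 was 3.24 ± 0.929 against 1.92 ± 0.498 (p = 0.114, exact permutation), or p = 0.0286 without IAA replicate 2. By replicate number, which was taken to pair the samples in both lines, 4 of 4 pairs were higher with IAA in each (exact sign-flip p = 0.125, the smallest possible). Within runs the Ostir1 means with and without IAA were 2.07% and 1.56% in 1 run and 1.42% and 1.09% in another, and the CTCF-tag line lay in 1 run. The site at 1030 bp took 0.906 ± 0.116% of all rows in parental IAA against 0.462 ± 0.00743% in NT, while the site at 3660 bp took 0.285 ± 0.0827% against 0.265 ± 0.0914% (n = 4 each).

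**Figure D4:**
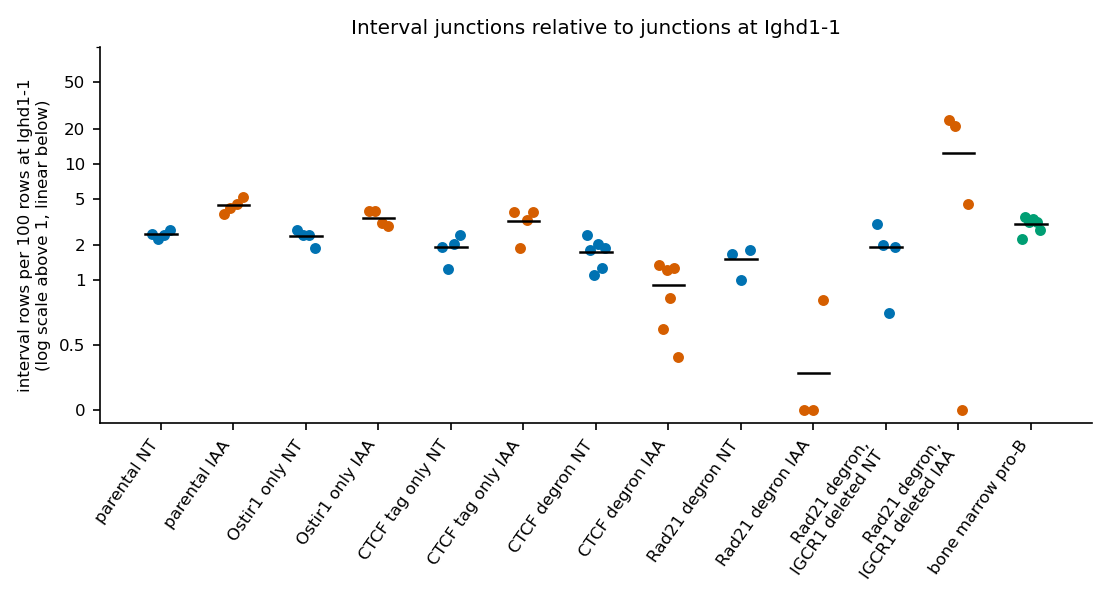
Interval rows per 100 rows within 100 bp of Ighd1-1 (y axis, linear below 1 and logarithmic above) by group (x axis), 1 point per replicate and a bar at the mean; blue is NT, orange IAA, green bone marrow. The CTCF degron falls from 1.77 to 0.962 with IAA, the parental line rises from 2.48 to 4.39, and the IAA points of the IGCR1-deleted line rest on 12 to 34 rows at Ighd1-1.

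In the Rad21 degron line, where IAA is meant to deplete cohesin, almost no rows were left with IAA. The 3 Rad21 degron NT replicates had 359, 109 and 370 interval rows (0.772%, 0.435% and 0.883% of all rows). The 3 IAA replicates had 0, 0 and 1 rows among 1811, 1263 and 2492. The values did not overlap, and the exact permutation p was 0.1, the smallest that 3 against 3 allows. Pooled over replicates the ratio of NT to IAA was 41.1 (95% exact counting interval 7.36 to 1626). In the 2 empty replicates a floor of 3 rows is a share of 0.166% and 0.238%. The upper limits of their exact 95% counting intervals were 0.203% and 0.292%. Rows at Ighd1-1 numbered only 51, 68 and 171 with IAA, and per 100 of these the pooled NT to IAA ratio was 4.66 with an interval of 0.834 to 184, so a difference beyond that at Ighd1-1 was not detectable at this depth. The single row lay 1986 bp from Ighd1-1. Each replicate number was a run of its own that held both groups, and the share differed by -0.772, -0.435 and -0.839 percentage points in these 3 runs.

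With IGCR1 deleted, the Rad21 degron line without IAA had 49, 30, 3 and 36 interval rows (0.363%, 0.196%, 0.0563% and 0.249%), all below the 3 NT replicates with IGCR1 (0.216 ± 0.127%, n = 4, against 0.697 ± 0.233%, n = 3, exact permutation p = 0.0286). Leaving out any 1 replicate gave p of 0.0667 to 0.1, since fewer samples cannot reach lower. Per 100 rows at Ighd1-1 the values were 1.93 ± 0.930 and 1.51 ± 0.440 and overlapped (exact permutation p = 0.457). The same sites were in use in the deleted line. The sites at 1030, 1986, 3176 and 3660 bp had 26, 20, 17 and 25 of its 118 rows.

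With IAA, this line had 8, 7, 0 and 1 interval rows, and its share of 0.166 ± 0.163% overlapped that without IAA (exact permutation p = 0.657). Only 7 of these 16 rows were in plus orientation, and 9 were in minus orientation at the minus site 3018 bp away. None of the 7 lay at any of the 5 plus-orientation sites. Counted in plus orientation only, the share difference went from -0.0499 to -0.132 percentage points (exact permutation p = 0.143). For each 100 rows at Ighd1-1 the values were 23.5, 21.2, 0 and 4.55, on 34, 33, 12 and 22 rows at Ighd1-1. They did not pass the test against those without IAA (a difference of 10.4, exact permutation p = 0.2, and of 3.41 in plus orientation only, exact permutation p = 0.457). Replicate 3 of both groups was a run of its own, with 0 with IAA and 0.748 without. In the other run, with 3 replicates each, the values were 4.55 to 23.5 with IAA and 1.92 to 3.02 without, and did not overlap, while the mean shares were 0.221% and 0.269%. Without IAA replicate 3 the exact permutation p was 0.0286. Pooled over replicates the values were 15.8 and 2.19 per 100, a ratio of NT to IAA of 0.139 (95% exact counting interval 0.0819 to 0.250). That interval leaves out the spread between replicates, and most of the pooled IAA rows came from replicates 1 and 2. In the Rad21 degron line with IGCR1 this ratio was 4.66 (0.834 to 184) on 1 interval row with IAA, so an opposite direction was not shown. In the IGCR1-deleted line the pooled ratio as a share of all rows was 1.28 (0.756 to 2.31).

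Lines without IAA also differed from one another. Against parental NT, the share was lower in Rad21 degron NT (0.697 ± 0.233%, n = 3, against 1.50 ± 0.107%, n = 4, exact permutation p = 0.0286) and in CTCF degron NT (1.09 ± 0.258%, n = 6, exact permutation p = 0.0143), with no overlap in either. For the Rad21 degron, leaving out any 1 replicate gave p of 0.0667 to 0.1, the smallest possible then. For the CTCF degron the p rose to 0.0595 without parental NT replicate 1 or 4. The CTCF-tag line overlapped the parental line (exact permutation p = 0.229), and within the run that held both the means were 1.26% and 1.46%. Per 100 rows at Ighd1-1 the Rad21 and CTCF degron lines were again lower (1.51 ± 0.440 and 1.77 ± 0.495 against 2.48 ± 0.179, exact permutation p = 0.0286 each), the latter with overlapping groups and a p of up to 0.0714 when 1 parental replicate was left out. With identical rows of a library counted once, both of these calls ended, at -4.60 for the Rad21 degron (exact permutation p = 0.143) and -3.85 for the CTCF degron (exact permutation p = 0.0667). The share call of the Rad21 degron ended too, at -1.90 percentage points (exact permutation p = 0.0857), and that of the CTCF degron stayed, at -1.25 (exact permutation p = 0.0333). The degron lines shared no run with the parental line, so run and line cannot be told apart. The sites did not all follow the total. The site at 1030 bp took 0.462 ± 0.00743% of all rows in parental NT (n = 4) and a like 0.453 ± 0.145% in CTCF degron NT (n = 6), but 0.245 ± 0.0884% in Rad21 degron NT (n = 3). The site at 3176 bp took 0.125 ± 0.0128%, 0.0329 ± 0.00691% and 0.0660 ± 0.0168% in the same 3 groups. These site levels were not tested.

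In bone marrow the share of all rows was lower than in parental NT, but the value per 100 rows at Ighd1-1 was not. The 6 shares ran from 0.292% over a median of 0.486% to 0.588% (0.465 ± 0.119% against 1.50 ± 0.107% in parental NT, exact permutation p = 0.00476, no overlap). Per 100 rows at Ighd1-1 the values were 3.02 ± 0.449 (n = 6) and 2.48 ± 0.179 (n = 4), which overlapped (exact permutation p = 0.0571, or 0.0238 without bone marrow replicate 1). The second value turned to -2.96 rows per 100 (exact permutation p = 0.133) when identical rows of a library were counted once, and to 8.64 (exact permutation p = 0.0429) when rows marked as duplicate, which only bone marrow has, were left out. Bone marrow and parental samples shared no run.

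The makeup of the interval in bone marrow was set beside that in parental NT. The site at 3176 bp took 24.9 ± 7.52% of interval rows in bone marrow (15.8% to 35.2%, n = 6) and 8.35 ± 1.07% in parental NT (7.12% to 9.31%, n = 4), and the ranges did not overlap. The IGCR1-deleted line without IAA reached 13.9% to 16.7% there (n = 3), which overlaps bone marrow. The site at 3660 bp took 7.25 ± 3.49% and 17.5 ± 5.15%, and the site at 1986 bp 8.82 ± 2.52% and 16.7 ± 4.30%. The site at 1030 bp was the most used in both, at 40.7 ± 4.82% and 30.8 ± 1.88%. Other lines came near bone marrow at single sites, such as CTCF degron NT with 41.8 ± 8.23% at 1030 bp and CTCF-tag IAA with 7.82 ± 5.64% at 3660 bp. As a share of all rows, the site at 3176 bp took 0.117 ± 0.0483% in bone marrow and a like 0.125 ± 0.0128% in parental NT. The other sites were lower in bone marrow on that scale. The site at 1030 bp took 0.190 ± 0.0549% against 0.462 ± 0.00743% in parental NT, and the site at 1986 bp 0.0409 ± 0.0170% against 0.249 ± 0.0583%. The mm9 sequence has 1 match to the core of the CTCF consensus motif in the interval, with at most 1 mismatch on either strand, at mm9 114723481 to 114723492 on the minus strand, 3100 bp from Ighd1-1. Of windows of the same length along chromosome 12, 31.3% hold such a match, and it is a description of the sequence and not of CTCF binding.

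**Figure D5:**
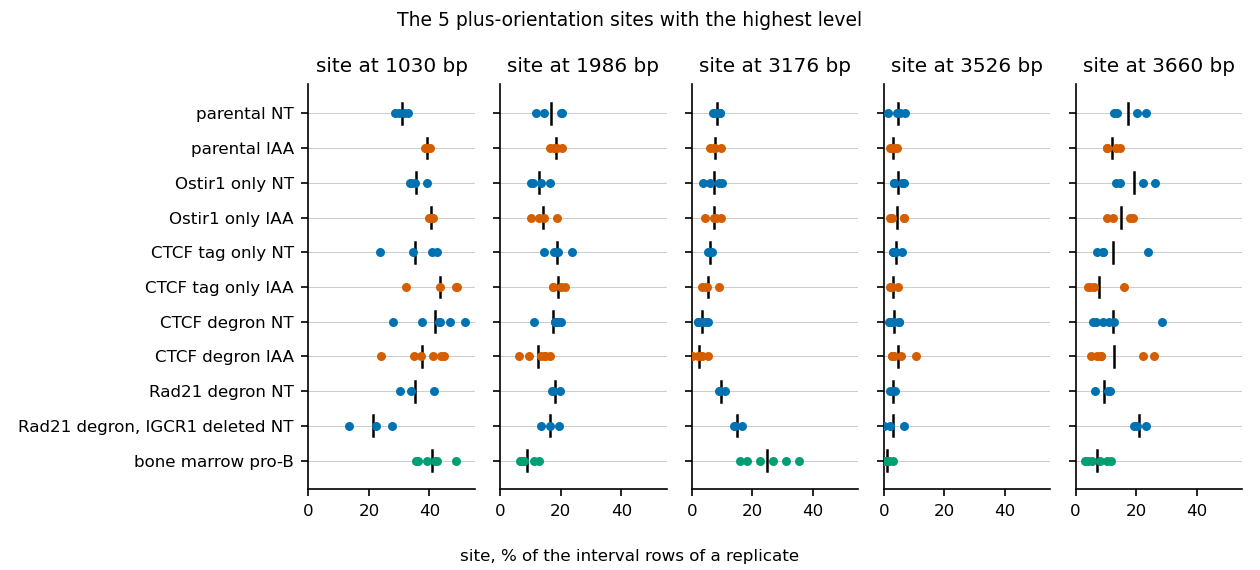
Percent of the interval rows of a replicate (x axis) at each of the 5 plus-orientation sites (1 panel each) by group (y axis), 1 point per replicate with at least 10 interval rows and a bar at the mean. The bone marrow points of the site at 3176 bp lie from 15.8% to 35.2%, to the right of the parental NT points at 7.12% to 9.31%.

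The share of minus-orientation rows within the interval was lower with IAA in the parental line, at 0.603 ± 0.172% against 1.49 ± 0.386% (n = 4 each, no overlap, exact permutation p = 0.0286). It rested on 67 and 110 minus-orientation rows, and without IAA replicate 2, 3 or 4 the p was 0.0571 (exact permutation). With replicate numbers as pairs, as they were taken in this line, the call ended (-0.889 percentage points, exact sign-flip p = 0.125, the smallest for 4 pairs). With b libraries only it ended too (-1.05, exact permutation p = 0.143). The CTCF-tag line without IAA was also lower than the parental line, 0.732 ± 0.193% (n = 4, exact permutation p = 0.0286, and 0.0571 without any 1 of its replicates, or 0.171 with b libraries only). In the CTCF degron line the share was 1.57 ± 1.62% with IAA and 0.971 ± 0.456% without (n = 6 each, exact permutation p = 0.411), on 6 and 28 rows. The remaining 6 comparisons of this share did not pass the test, with p from 0.0857 to 0.548 (exact permutation).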

How the data were processed

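The deposited files list 1 junction read per row with its prey chromosome, coordinate and orientation. Per the submitters' processing notes they were made with Bowtie2 and mm9, and per the labels reads were aligned to a hybrid of AJ851868 and mm9. Versions are not given in the sources used here. Rows were used as deposited, and all counts, percent values and ratios of rows were computed here from the positions the authors deposited, so PCR copies are included. The duplicate column marks rows in 3 bone marrow replicates only.

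The members, sites, windows and tests were chosen with earlier results of these data known. A replicate is the mean of its a and b libraries (orientation: a and b rows summed). Prey coordinates of a libraries sit 3 bases lower and of b libraries 3 bases higher than in bone marrow, tested on matching read sequence. Counts by position and sites use coordinates with this shift removed, counts of the interval those as deposited. The sites named are the 5 plus-orientation and 3 minus-orientation windows (a position and 5 bases either side) with the highest share of all rows, libraries weighted equally, taken in turn. One minus-orientation window is not reported here. Orientation and site makeup need 10 rows in a replicate.

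Sites were placed in mm9 by unique 20-base matches of the read consensus, and 18 of 3700 bases read at least 10 times differed from mm9. Printed site sequences are mm9 bases, and the joined example is a deposited read. D segments were taken from GENCODE vM1, named through RefSeq.

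Tests were exact permutation tests over replicates and exact sign-flip tests within replicates, checked on simulated shares, with Python 3.11.15, pandas 2.3.3, numpy 2.4.6 and scipy 1.17.1. Replicate numbers were taken to pair IAA and NT samples in the parental, Ostir1 and CTCF-tag lines, and not in the other comparisons. In these 3 lines the deviations of same-numbered samples correlated above 0.1 in each pair (mean r 0.684, 0.907 and 0.950). This choice came from the data and not from a label. Whether shared runs gave these correlations was not tested. In the Rad21 degron line each replicate number was a run that held both groups, and r went down to 0.0635. With IAA this r rested on 1 interval row, so it could not decide on pairing. Paired by run, 3 of 3 pairs had a lower share with IAA (exact sign-flip p = 0.25, the smallest for 3 pairs). For the IGCR1-deleted line only b libraries were used. The treatment label of 4 libraries titled as IAA names no IAA, and bone marrow replicates 4 to 6 carry the label of the v-Abl treatment. The 12 off-target lists entered no comparison. The counts of interval rows per replicate run from 0 to 5149.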

Additional observations from a re-analysis of the deposited data

Results flagged for a closer look

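The effect of IAA on the interval differed between the CTCF degron line and each of the 3 control lines. This comparison was added with the values already known. The measure was the log2 ratio of IAA to NT of same-numbered replicates. For the share of all rows it averaged -2.13 in the CTCF degron line (-3.10 to -1.01, n = 6), 0.61 in the parental line, 0.40 in the Ostir1 line and 0.55 in the CTCF-tag line (n = 4 each). The differences were -2.74144, -2.52903 and -2.67774 (two-sided exact permutation p = 0.00476 each, the smallest possible, Benjamini-Hochberg value 0.00952 over 6 tests). Each CTCF degron pair fell and each control pair rose. For rows per 100 rows at Ighd1-1 the CTCF degron line averaged -0.95 (-2.21 to 0.16). The differences were -1.76635 from the parental line, -1.48489 from the Ostir1 line and -1.68408 from the CTCF-tag line (exact permutation p = 0.00952, 0.0143 and 0.00952, Benjamini-Hochberg values 0.0114, 0.0143 and 0.0114). Replicate numbers were not taken to pair the samples of the CTCF degron line, and that line shared no run with the control lines, so run and line cannot be told apart.

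The 12 off-target lists, which entered no comparison, also held interval rows, 4554 of 11788. In the parental IAA lists 282, 295, 277 and 305 of 415 rows lay in the interval. In the CTCF degron IAA lists these were 39, 40, 45, 68, 33 and 72 of 415. The titles name the CTCF degron, but the genotype label of these lists reads WT, as in the parental lists, so which line they come from rests on the title. The list pooled over replicates had 2647 of 3819 for parental IAA and 451 of 3819 for CTCF degron IAA. These lists have equal sizes, so their totals are not depths.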

How the results depend on the processing

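Differences below are in percentage points for shares and in rows per 100 rows at Ighd1-1, with p from exact permutation tests, and sign-flip tests for pairs. The cause of a change was not tested. The fall of the CTCF degron share kept its direction and its call under each alternative run. Over the alternatives other than leaving out replicates, 280 values kept direction and side of the threshold, 28 lost a call, 4 gained one, 9 changed sign and 1 moved.

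With identical rows of a library counted once, 85.4% of interval rows but 55.1% of all rows were kept. Identical here means the same prey coordinates, orientation and bait end. Inserted bases were not compared, so this count does not separate PCR copies from different joins with the same ends. The parental IAA share gave 0.865 (p = 0.314), Ostir1 IAA 0.574 (p = 0.0286) and Rad21 degron NT against parental -1.90 (p = 0.0857). Per 100, parental IAA gave 2.77 (p = 0.429), Ostir1 IAA 1.88 (p = 0.0857), Rad21 degron NT -4.60 (p = 0.143), CTCF degron NT -3.85 (p = 0.0667) and bone marrow -2.96 (p = 0.133), all by exact permutation. Calls that stayed but moved by over 1.5 times were the CTCF degron IAA share at -1.26, CTCF degron IAA per 100 at -1.75, the CTCF degron NT share at -1.25 and the bone marrow share at -2.27. Without rows marked as duplicate, bone marrow gave 8.64 per 100 (exact permutation p = 0.0429).

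With only the nearest 1000 bp, which leaves out the 5 sites, the shares gave 0.0212 for parental IAA, -0.0220 for the IGCR1-deleted line against Rad21 degron NT, -0.0174 for Rad21 degron NT, 0.00096 for CTCF degron NT and 0.0103 for CTCF-tag NT against parental. Per 100 the values were -0.103 for the IGCR1-deleted line with IAA, -0.0324 for CTCF degron IAA, 0.0257 for Ostir1 IAA, -0.0105 for Rad21 degron NT, 0.00013 for CTCF degron NT and 0.0102 for CTCF-tag NT. None of these passed the exact permutation test (p from 0.0857 to 0.990). The minus-orientation share gave -3.47 for parental IAA, 1.31 for Ostir1 IAA, -3.55 for CTCF-tag IAA (exact permutation p = 0.0286), -2.82 for CTCF-tag NT and 1.68 for bone marrow.

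With the replicate block, shares gave 0.798 for parental IAA, -0.492 for the IGCR1-deleted line, -0.768 for Rad21 degron NT, -0.407 for CTCF degron NT and -1.04 for bone marrow. Per 100, blocked values were -0.804 for CTCF degron IAA (4 of 6 pairs lower), 1.92 for parental IAA, 1.08 for Ostir1 IAA, -0.892 for Rad21 degron NT and -0.621 for CTCF degron NT. Blocked minus-orientation shares were -0.889 for parental IAA, -0.760 for CTCF-tag NT and 0.142 for bone marrow. The block's exact sign-flip p was 0.125, 0.25 or 0.75, and no pairing of 3 or 4 pairs can go below 0.125. With b libraries only, the minus-orientation share gave -1.05 for parental IAA (p = 0.143), -0.674 for Ostir1 IAA (p = 0.0286) and -0.949 for CTCF-tag NT (exact permutation p = 0.171). A D stretch of 10 bases in place of 8, chosen after the data were seen, gave 37.5%.

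Leaving out each replicate in turn, shares ranged from -0.103 to 0.00542 for the IGCR1-deleted line with IAA (above 0 without IAA replicate 3), -0.612 to -0.388 for that line against Rad21 degron NT, -0.901 to -0.677 for Rad21 degron NT and -0.461 to -0.326 for CTCF degron NT. Per 100 the ranges were 6.66 to 14.5 for the IGCR1-deleted line with IAA, 0.916 to 1.25 for Ostir1 IAA, 1.09 to 1.76 for CTCF-tag IAA, -1.12 to -0.712 for Rad21 degron NT, -0.844 to -0.578 for CTCF degron NT, -0.729 to -0.331 for CTCF-tag NT and 0.457 to 0.693 for bone marrow. For the minus-orientation share they were -1.02 to -0.732 for parental IAA, -0.598 to -0.323 for Ostir1 IAA, -0.403 to -0.250 for CTCF-tag IAA and -0.891 to -0.603 for CTCF-tag NT. For the interval minus the JH-side window they were 0.879 to 0.998 for CTCF degron NT, 0.124 to 0.153 for CTCF degron IAA and -0.0257 to 0.00387 for Rad21 degron IAA, which is above 0 without replicate 1.

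The Rad21 degron IAA and IGCR1-deleted IAA groups have at most 2668 rows per replicate, which limits what their shares can show.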
